A study of Mus musculus with 4 samples.

Results

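The genes that encode integrin chains and laminin chains were examined for their contacts in an H3K27ac HiChIP interaction list of a mouse brain tumor. Members were the autosomal protein-coding genes whose symbols name an integrin alpha chain, an integrin beta chain or a laminin chain. There were 37 of them among 20665 autosomal protein-coding genes: 18 alpha chains, 8 beta chains and 11 laminin chains. The extraction protocol and the design text name the assay as HiChIP, whereas all 4 sample titles name H3K27ac ChIP-seq. The list pairs distant bins, so it is read here as HiChIP for H3K27ac, which enriches ligated pairs of nearby chromatin fragments for a histone mark of active promoters and enhancers. Per the labels, 2 libraries were of YAP-M tumor, with the genotype given as YAP-M fusion, and 2 from cultured wild-type mouse neural progenitor cells, kept as neural stem cells in medium with EGF, basic FGF and heparin. All 4 libraries used an antibody to H3K27ac. YAP-M joins YAP1, a co-activator of TEAD transcription factors, to MAMLD1, and the labels give no promoter, age or strain for the tumor. The sample labels give the tumor's tissue only as brain, the design text speaks of isolated tumor cells without saying how, and other cell types may be present. The single deposited list carries the letters YM in its name, read here as YAP-M, and its columns tie no interaction to a library. No list for the neural progenitor cells was used here, so no comparison with them was made. With 1 list there is no replicate error and no test, and the read depth is unknown.

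Integrins are cell-surface receptors made of an alpha and a beta chain, which together bind the extracellular matrix outside the cell and, through adaptor proteins, the actin cytoskeleton inside. Laminins are secreted trimers of an alpha, a beta and a gamma chain and form the sheet-like core of basement membranes. In the brain, laminins lie around blood vessels and below the meninges, where the endfeet of radial glia and astrocytes attach through integrins and dystroglycan.

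Each interaction joined 2 bins of 10 kb on a chromosome, and was counted for a gene if either bin overlapped 2.5 kb to either side of the gene's lowest or highest coordinate. At least 1 interaction was found at 30 of the 37 members (81.1%, exact 95% interval 64.8 to 92.0%, covering counting error only), against 65.7% of all autosomal coding genes. The median was 4 interactions per member and 2 over all coding genes. At 10 of the 37 members (27.0%) there were 10 or more interactions, against 17.1% of coding genes. The members were long, with a median of 62.5 kb against 17.5 kb. Among the 22 members of at least 50 kb, 18 (81.8%) had an interaction, which was near the 75.3% of all coding genes of that length, and the medians were 3.5 and 3. Of these long members 8 had 10 or more interactions (36.4%), against 22.0% of coding genes of that length. The members' ends took part in 241 distinct interactions, of which 12 were counted for more than 1 member. Their median distance was 130 kb (interquartile range 80 to 210 kb), against 180 kb over the whole list. The whole list also holds interactions away from gene ends, so the 2 sets are unlike. Of the 241 interactions, 174 were at the 10 members with 10 or more.

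Counts at the gene ends differed between the chains. Integrin genes had an interaction at 24 of 26 (92.3%, exact 95% interval 74.9 to 99.1%) with a median of 6.5. Laminin genes had one at 6 of 11 (54.5%, interval 23.4 to 83.3%) with a median of 1. Over all coding genes the share was 65.7%, which the laminin interval includes, and the median was 2. The intervals overlap, and the difference between the families was not tested. Among alpha chains the median was 7 and the range 0 to 30. Among beta chains it was 6 and the range 1 to 29, and all 8 had an interaction. No interaction touched the ends of Itga7, Itgae, Lama1, Lama2, Lamb2, Lamb3 or Lamc3. Over the whole span of the gene, Lama2 had 4 interactions, Itgae and Lamc3 had 3 each and Lamb3 had 1, whereas Itga7, Lama1 and Lamb2 had none. At unknown depth, these genes had no listed contact rather than a measured absence of one. Counted over the span, 9 of 11 laminin genes (81.8%) and 25 of 26 integrin genes (96.2%) had an interaction, against 67.8% of coding genes. The span medians were 3 for laminin genes, 10 for integrin genes and 3 for all coding genes.

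**Figure D1:**
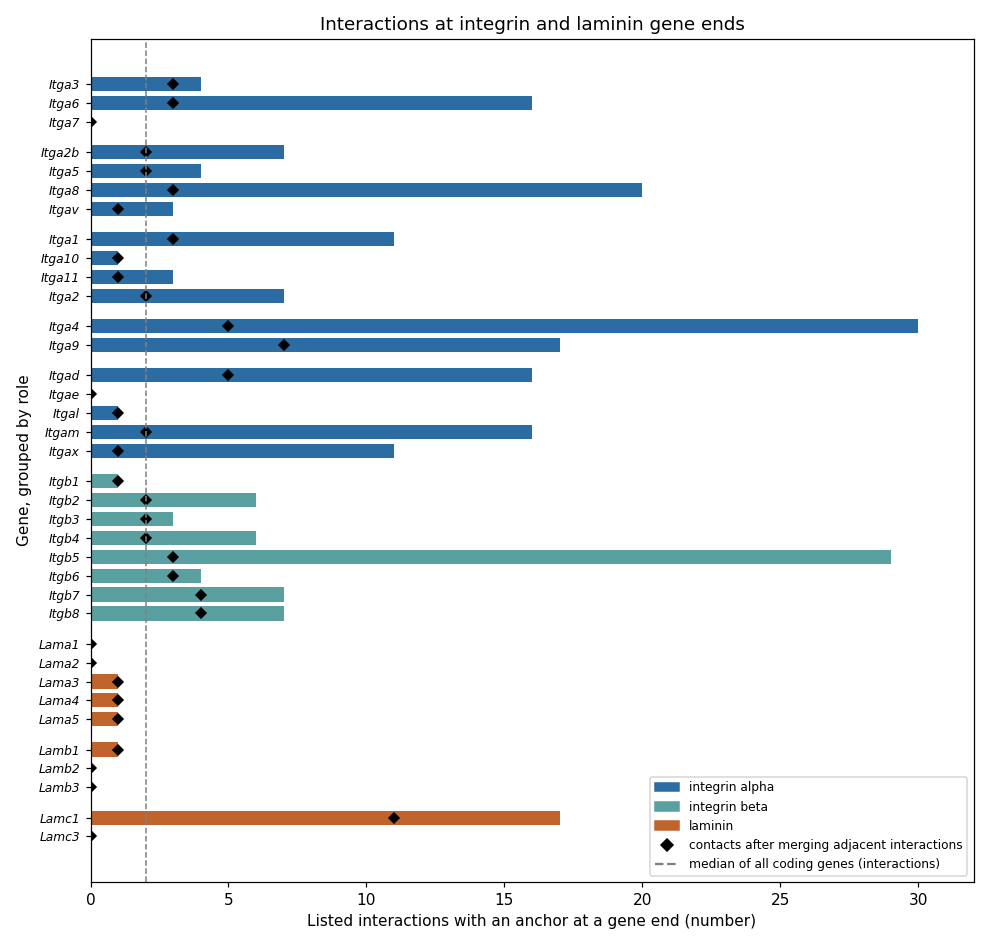
Number of listed interactions at the ends of 36 of the 37 genes (bars, coloured by chain type) and of contacts after merging adjacent interactions (diamonds), grouped by role, with the median of all coding genes as a dashed line. Itga4 and Itgb5 reach 30 and 29 interactions, and Lamc1 is the highest of the laminins at 17. After merging, Lamc1 has the most contacts, 11.

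The RefSeq table of promoters (build GRCm38.p6) held 26 windows for 23 of the 37 members and gave their strand. The 250 bases before the start are shown for the 3 members with the most interactions at a start, Itga4, Itgb5 and Itga8. Those of Itgax and Itgb1 are shown as examples of windows that hold a motif. Capitals mark exact matches to the TEAD motif GGAATG, the AP-1 motif TGANTCA or the core TTGGC of the nuclear factor I site, on either strand. Sequences run 5′ to 3′ along the gene.
Itga4, chr2:79255176-79255425, plus strand: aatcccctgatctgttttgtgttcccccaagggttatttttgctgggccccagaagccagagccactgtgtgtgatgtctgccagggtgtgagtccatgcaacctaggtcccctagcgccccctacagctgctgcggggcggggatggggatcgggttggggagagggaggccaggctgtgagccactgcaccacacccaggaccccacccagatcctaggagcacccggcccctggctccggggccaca
Itgb5, chr16:33829415-33829664, plus strand: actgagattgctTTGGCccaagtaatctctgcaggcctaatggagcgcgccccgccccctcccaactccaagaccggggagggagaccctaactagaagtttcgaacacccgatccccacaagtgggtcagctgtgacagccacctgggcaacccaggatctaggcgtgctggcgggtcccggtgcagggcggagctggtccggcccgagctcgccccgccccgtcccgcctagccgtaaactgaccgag
Itga8, chr2:12301945-12302194, minus strand: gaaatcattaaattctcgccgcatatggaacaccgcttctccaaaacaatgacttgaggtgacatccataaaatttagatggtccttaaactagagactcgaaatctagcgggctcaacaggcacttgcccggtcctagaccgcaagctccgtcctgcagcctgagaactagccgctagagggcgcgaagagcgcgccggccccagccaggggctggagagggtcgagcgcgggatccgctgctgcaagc
Itgax, chr7:128129300-128129549, plus strand: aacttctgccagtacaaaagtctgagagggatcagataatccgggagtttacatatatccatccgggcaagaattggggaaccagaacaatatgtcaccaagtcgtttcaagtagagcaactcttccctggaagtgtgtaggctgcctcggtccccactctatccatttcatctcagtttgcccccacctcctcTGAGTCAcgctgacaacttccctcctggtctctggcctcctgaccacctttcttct
Itgb1, chr8:128685404-128685653, plus strand: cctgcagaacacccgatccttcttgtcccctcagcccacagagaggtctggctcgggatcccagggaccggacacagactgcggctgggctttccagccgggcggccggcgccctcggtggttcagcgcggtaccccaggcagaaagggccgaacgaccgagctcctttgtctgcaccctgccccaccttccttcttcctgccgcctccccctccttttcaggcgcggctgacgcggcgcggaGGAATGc
Itga4 and Itga8 held none of these letters in this window. The match in Itgax is to AP-1 and begins 56 bases before the start, and the match in Itgb1 is to TEAD and begins 7 bases before it. Itgb5 held the nuclear factor I core 238 bases before the start. Windows not shown also held matches near the start, such as this core 6 bases before it at Itga10 and 9 bases before it at Itgb8.

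Over the full windows of 250 bases before to 50 after a start, the TEAD letters were in 3 of 26 member windows (11.5%; Itga10, Itgb1 and Lamb3), against 13.4% of 20085 windows of autosomal coding genes. The AP-1 letters were in 3 of 26 (11.5%; Itga3, Itga9 and Itgax), against 7.06%. The full palindromic nuclear factor I motif was in none of the 26, and in 0.0349% of all windows. Its core TTGGC was in 11 of 26 (42.3%), against 48.0%. All motifs were sought on both strands, and the core is part of the full motif. The TEAD and core shares were close to those of all windows. The AP-1 share was higher but rests on 3 windows, too few to judge. A match is a description of letters. GC content ran from 38.3% in the inner of the 2 Itgb6 windows to 72.7% at Lama5, with 65.7% at Itgb5, 64.3% at Itga4 and 59.0% at Itga8.

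The laminin-binding alpha chains are Itga3, Itga6 and Itga7. Itga6, the alpha chain of the receptors alpha6-beta1 and alpha6-beta4 and a common surface marker of neural stem cells, had 16 interactions at its ends (chromosome 2, 71786886 to 71858427). The low-coordinate end held 14 and the high-coordinate end 2, and they fell into 3 contacts after merging. All 16 reached lower coordinates, to 14 partner bins whose centres lay up to 212 kb below the gene. These bins lay in the 240 kb without a coding gene between Itga6 and Dlx2, a homeobox gene of forebrain interneurons, and no bin held an end of another coding gene. Over its span Itga6 had 60 interactions, the most of the members, and in every bin of the gene all of them reached lower coordinates. The most connected bin inside the gene, at 71810001 to 71820000, had 15, as against 14 at the low end. Its 16 end interactions exceeded the count of 92.5% of coding genes. Itga3, the chain of alpha3-beta1, had 4, and Itga7, the main laminin-binding alpha chain of muscle, had 0.

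The beta partners of Itga6 had fewer listed interactions. Itgb1, the beta chain shared by most matrix-binding integrins, had 1, from its start to a bin 30 kb away, and 5 over its span. Its nearest coding gene at lower coordinates, Nrp1, lay 180 kb away and had no end among the partners. Itgb4, the partner of alpha6 in hemidesmosomes, had 6, all at its high-coordinate end in bins shared with an end of Galk1 or H3f3b. The partner bins of Itgb4 held ends of Recql5, Sap30bp, Fbf1, Mrpl38 and Trim65.

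Alpha chains of the RGD-binding and platelet group, which bind ligands such as fibronectin, vitronectin and fibrinogen, ranged from 3 to 20. Itga8, which pairs with beta1 and binds nephronectin and fibronectin, had 20 interactions (chromosome 2, 12106632 to 12301985, minus strand). All were at the start at the high-coordinate end, and none at the low end. They spanned 120 to 310 kb with a median of 240 kb, and all reached lower coordinates, in the direction of transcription. Of the 15 partner bins, 4 lay inside Itga8 and 11 beyond its far end, where the next coding gene lies 190 kb away. Merged, they formed 3 contacts. Itga2b, the platelet alpha chain, had 7, with ends of Ubtf and Atxn7l3 among its partners. Itga5, the main fibronectin receptor chain, had 4, all at the end away from its start and in bins shared with Zfp385a. Itgav, which pairs with several beta chains, had 3 at its ends but 18 over its span.

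Collagen-binding alpha chains had 1 to 11 interactions. Itga1 (chromosome 13, 114958079 to 115101964, minus strand) had 11, of which 8 were at its start at the high-coordinate end, and its neighbour Itga2 had 7. The genes lie 26 kb apart, and 2 interactions joined their ends; the low end of Itga2 shares its bins with Mocs2. On the other side, the partners of Itga1 were 3 bins with centres 103 to 123 kb beyond the gene, within 1196 kb that hold no coding gene before Isl1, a homeobox gene of motor neurons. Merged, Itga1 had 3 contacts and Itga2 had 2. One interaction of Itga2 spanned 960 kb, to a bin inside Arl15 that had 23 interactions in all. Itga11 had 3 and Itga10 had 1, which joined its own ends. Each of these 4 genes shared an end bin with another coding gene, and without the shared bins Itga1 had 7 and Itga2 had 2.

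The alpha4 and alpha9 chains, close relatives that bind fibronectin splice forms, VCAM-1, tenascin-C or osteopontin, both passed 10. Itga4 had the most interactions of the members, 30 (chromosome 2, 79255426 to 79333114, plus strand). All 30 were in the bin of the start, which holds no end of another coding gene, and 0 were at the high end, whose bins also hold an end of Cerkl. Of the 30, 29 reached lower coordinates, upstream of the start, and covered distances up to 380 kb. Of the 30 partner bins, 25 lay between coding genes, 3 at an end of Ube2e3 and 2 inside it. Ube2e3, a ubiquitin-conjugating enzyme gene, is the next coding gene upstream at 327 kb. One partner lay downstream at 440 kb, beyond Neurod1, a neurogenic bHLH factor gene 120 kb from Itga4 that had no end among the partners. The most connected partner bin, at 78960001 to 78970000, had 16 interactions in all. The 30 interactions of Itga4 merged into 5 contacts.

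Itga9 had 17 interactions and 7 contacts (chromosome 9, 118606709 to 118901003). Its low end held 10, its high end 8, and 1 joined them. The RefSeq start in the promoter table lies inside the annotated span at 118711692, and its bin had 1 interaction. The count at the low end is thus not that of this start. Of the 13 partner bins, 9 lay inside the gene, and the most distant were at Plcd1 and Vill, in interactions of up to 470 kb.

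**Figure D2:**
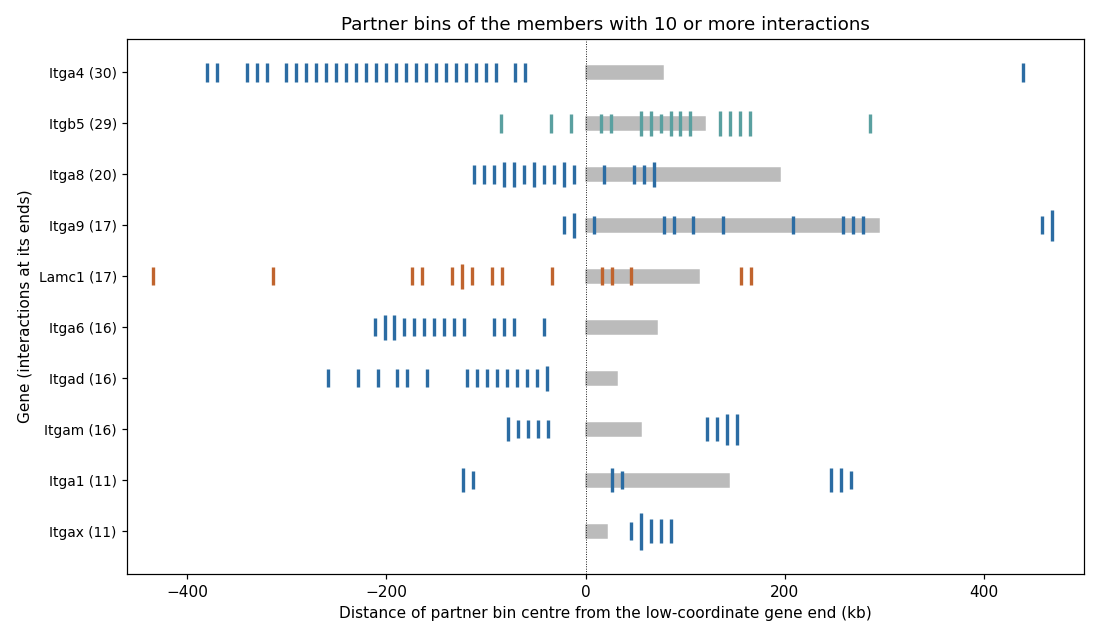
Partner bins of the 10 genes with 10 or more interactions, as distance of the bin centre from the low-coordinate end of the gene in kb; grey boxes are the genes, and a taller tick means more interactions with that bin. The ticks of Itga4, Itga6 and Itgad lie below the gene, apart from 1 at Itga4, those of Itga8 lie below and inside the gene, and those of Itgb5 and Itga9 lie largely inside or near it.

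Leukocyte alpha chains pair with beta2 (Itgal, Itgam, Itgax, Itgad) or beta7 (Itgae). Itgam, encoding CD11b of microglia and macrophages, had 16 interactions, and Itgad had 16 and Itgax, encoding CD11c, had 11. Itgal, encoding CD11a of lymphocytes, had 1, and Itgae had 0. Itgam, Itgax and Itgad are neighbours on chromosome 7 between 128062640 and 128205504, with gaps of 11.0 and 23.3 kb. Itgam and Itgax have an end bin in common, and 4 interactions were counted for both. Between their ends, 3 interactions joined Itgad to Itgam and 3 joined Itgad to Itgax, 5 distinct interactions in all because of the common bin. The high-coordinate end of Itgad held 15 of its 16 interactions, in a bin shared with an end of Cox6a2, a muscle cytochrome oxidase subunit gene, so 1 interaction was left outside shared bins. Other partners of Itgad and Itgam included ends of Pycard and Trim72. After merging, Itgad had 5 contacts, Itgam 2 and Itgax 1. Itgal lies 727.5 kb from Itgam, and no interaction joined its ends to those of the other 3. Its beta partner Itgb2 had 6 interactions, with ends of Trpm2 and Cfap410 399.3 and 409.3 kb beyond its high-coordinate end among its partners.

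Markers of other cell types were counted in the same way, and their part in these counts was not tested. Over all coding genes the share with an interaction was 65.7% and the median 2, and lists this small were not tested against it. Of 8 microglia and macrophage markers, 8 had an interaction, with a median of 3 and a range of 2 to 9. Of 6 T cell and NK cell markers 4 did (median 1, range 0 to 5), with Cd8a and Ncr1 at 0. Of 4 megakaryocyte and platelet markers 3 did (median 11, range 0 to 15), with Gp9 at 0 and the others in bins shared with other genes. Endothelial markers had an interaction at 6 of 7 (median 4, range 0 to 13, Tek at 0). Pericyte and fibroblast markers had one at 7 of 7 (median 3, range 1 to 14). Of 4 epithelial markers (median 0), Epcam, Krt5 and Krt14 were at 0 and Krt8 had 15. Neural stem cell, radial glia and ependymal markers had one at 7 of 7, with a median of 17 and a range of 7 to 27. In tissue, contacts from a few cells of one type and weaker contacts in many cells cannot be told apart.

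**Figure D3:**
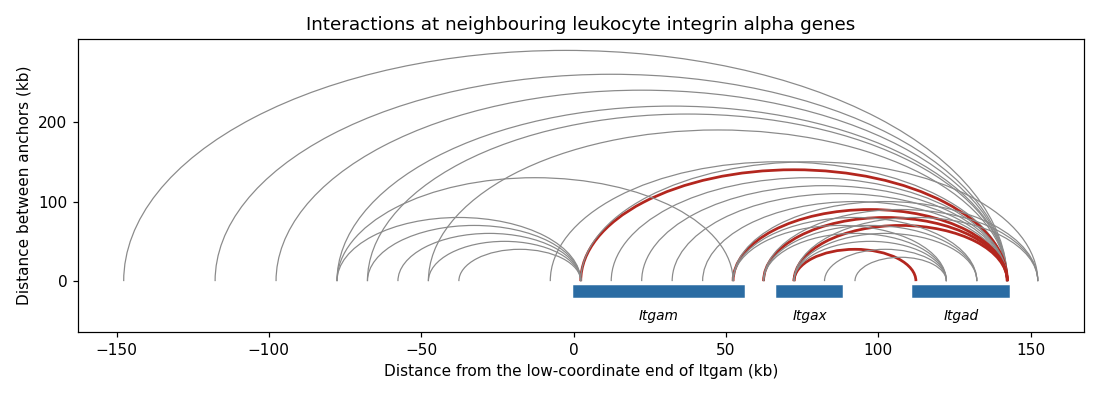
Interactions at the ends of the neighbouring genes Itgam, Itgax and Itgad, drawn as arcs whose height is the distance between anchors in kb, against the distance from the low-coordinate end of Itgam. The 5 red arcs join ends of Itgad to ends of Itgam or Itgax, and grey arcs are the other interactions of their ends.

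Among beta chains, Itgb5 stood apart with 29 interactions (chromosome 16, 33829665 to 33949338, plus strand), and the other 7 had 1 to 7. Beta5 pairs with alphav in a vitronectin receptor. The start of Itgb5 held 24 and its far end 9, and 4 joined the 2 ends. Of the 16 partner bins, 8 lay inside the gene. The rest lay at or in Muc13 and Heg1 on the upstream side, and Umps and Kalrn downstream, Kalrn encoding the guanine nucleotide exchange factor kalirin. Its end bins also held ends of Muc13 and Umps, and the bins without them had 13 interactions. Merged, Itgb5 had 3 contacts. The alphav-pairing beta chains Itgb3, Itgb6 and Itgb8 had 3, 4 and 7.

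Itgb6 and Itgb8, whose products with alphav bind and activate latent TGF-beta, had longest interactions of 730 and 710 kb. At the start of Itgb6, 3 of the 4 interactions spanned 670 to 730 kb, to bins at higher coordinates, and the middle one of these bins had 34 interactions in all. Over its span Itgb6 had 23. At Itgb8, 1 of the 7 interactions reached an end of Tmem196 over 710 kb, and the others spanned 70 to 210 kb. Itgb7, the partner of alpha4 and alphaE in lymphocytes, had 7 at its ends, all in a bin shared with an end of Rarg. It had 17 at its RefSeq start, whose window also reaches the neighbouring bin of the gene, where 10 interactions were listed.

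Laminin genes had low counts apart from Lamc1. Of the alpha chains, which carry the receptor-binding domains, Lama3, Lama4 and Lama5 had 1 interaction each and Lama1 and Lama2 had 0. Lama2 is 635.9 kb long, and 2 of its 62 interior bins had an interaction. Lama3 had 9 interactions over its span, 7 of them in 1 bin inside the gene, which was also the partner of its end. Lamb1, the common beta chain, had 1, over 120 kb, and Lamb2 and Lamb3 had 0.

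Lamc1, the gamma chain of most laminins, had 17 interactions and 11 contacts, the most contacts of the members (chromosome 1, 153218922 to 153332786). Its high-coordinate end held 15 and its low end 3, and 1 joined them, and the bins held no end of another coding gene. Of the 16 that did not join its own ends, 14 reached lower coordinates. Of the 15 partner bins, 3 lay inside Lamc1, 6 inside another coding gene, 3 at an end of another coding gene, and 3 between coding genes, up to 434 kb below the gene. Nmnat2, which encodes an axon maintenance enzyme, was among these genes. By trimer, laminin-511 thus had 1, 1 and 17 interactions at Lama5, Lamb1 and Lamc1, and laminin-111 had 0, 1 and 17 at Lama1, Lamb1 and Lamc1. The 1 at Lama5 was at the end away from its start, in a bin shared with an end of Adrm1.

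Merging changed the order of the members. Adjacent interactions (anchors within 1 bin of each other on both sides) were joined into 1 contact. Lamc1 had 1.55 interactions per contact, Itga9 2.43, Itga4 6.0, Itga8 6.67, Itgb5 9.67 and Itgax 11.0. Itga4 had the most interactions, 30, and Lamc1 had 17, but by contacts Lamc1 came first with 11, Itga9 came next with 7, and Itga4 and Itgad followed with 5 each. The median over members was 2 contacts, against 1 over all coding genes.

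**Figure D4:**
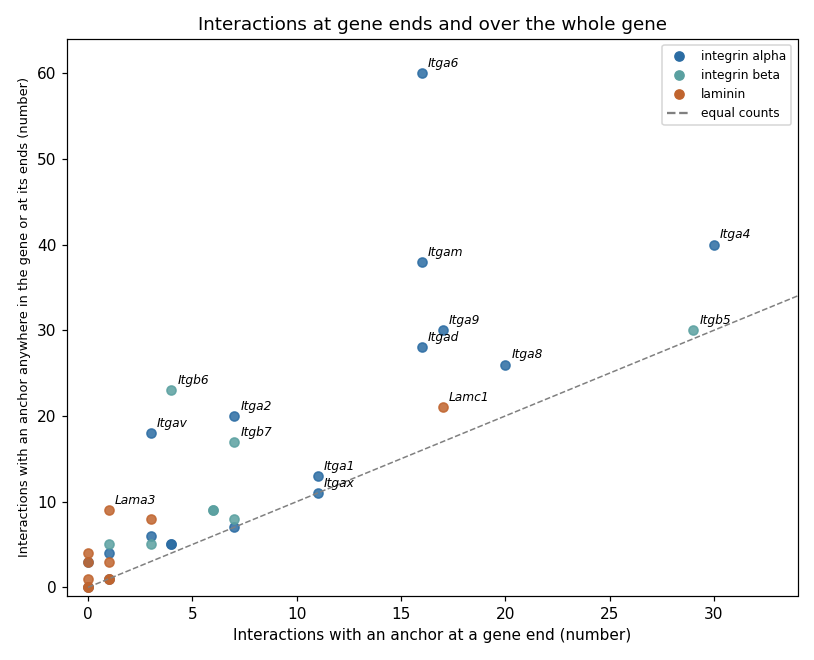
Interactions at gene ends (x axis) against interactions with an anchor anywhere in the gene or at its ends (y axis) for the 37 genes, with a dashed line at equal counts. Itga6 rises from 16 to 60, Itgam from 16 to 38 and Itgb6 from 4 to 23, whereas Itgb5 goes from 29 to 30.

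The partner bins of the members were placed by annotation. Of 199 partner bins, summed over members, 40.2% lay between coding genes, 29.1% at an end of another coding gene, 16.1% in the member itself and 14.6% inside another coding gene. Summed over all coding genes these were 25.3%, 47.1%, 7.0% and 20.6%. Of the 80 member bins between coding genes, Itga4 held 25, Itga6 held 14 and Itga8 held 11. The pooled share between coding genes thus rests largely on these genes and is not a trait of most members. The members' greater length, given above, moves with the share in the gene itself, and its part was not tested. An end of another coding gene was among the partners of 21 of 37 members (56.8%), close to 56.0% of all coding genes. An interaction between a gene's own ends was listed for 7 of 37 members (18.9%; Itga2, Itga9, Itga10, Itgb2, Itgb5, Itgb8 and Lamc1), against 4.13% of coding genes. It was listed for 6.34% of coding genes whose outermost end bins lie at least 20 kb apart, as those of all members do. Among genes of at least 50 kb it was listed for 5 of 22 members (22.7%), against 11.7% of coding genes. Of the 10 members with 10 or more interactions, 5 had at least 90% of them on one side (Itga4, Itga6, Itga8, Itgad and Itgax), close to 48.1% of coding genes with as many. Over the whole gene, 34 of 37 members had an interaction, against 67.8%, and 14 had 10 or more, against 23.6%. Longer genes hold more bins, and among genes of at least 50 kb 21 of 22 members had an interaction over the gene, against 82.5%, and 11 of the 22 had 10 or more, against 43.4%. The median over the gene was 11 for these members and 7 for coding genes of that length.

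Other genes of matrix adhesion were taken from 3 lists. For scale, 65.7% of all autosomal coding genes were touched by a listed interaction at their ends, and their median count was 2. Among coding genes of at least 50 kb these values were 75.3% and 3. The lists were not tested against them. Of 13 partners of laminin in basement membranes, 11 had an interaction, with a median of 4. They were led by Col4a1, a collagen IV chain, with 17, Nid1, which links laminin to collagen IV, with 11, and Dag1, encoding the laminin receptor dystroglycan, with 7. Col4a1 shared an end bin with Col4a2, whereas Nid1 and Dag1 shared none. Col4a3 and Col4a4 had 0. Of 20 other integrin ligands and their relatives, 19 had an interaction, with a median of 7, and Thbs1, Fn1 and Ccn1 had 84, 42 and 21. Merged, these were 7, 4 and 7 contacts. Thbs1 shared an end bin with Fsip1 and Fn1 with Atic, whereas Ccn1 shared none. Fbln5, an elastic-fibre protein gene, had no interaction. Fibronectin, the product of Fn1, is bound by alpha4-beta1, alpha5-beta1, alpha8-beta1 and alphav integrins, and their alpha genes had 30, 4, 20 and 3 interactions.

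Of 23 genes for proteins that act on the cytoplasmic side of integrins, 22 had an interaction (95.7%), with a median of 7. The share was 65.7% over all coding genes and 75.3% over those of at least 50 kb. The highest were the actin crosslinker Actn1 with 26 and the tensins Tns3 and Tns1 with 22 and 15, and Lims1 had 0. Tns1 shared an end bin with Rufy4, whereas Actn1 and Tns3 shared none. The talin gene Tln1 and the kindlin gene Fermt2, whose proteins activate integrins by binding beta-chain tails, had 8 and 2.

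**Figure D5:**
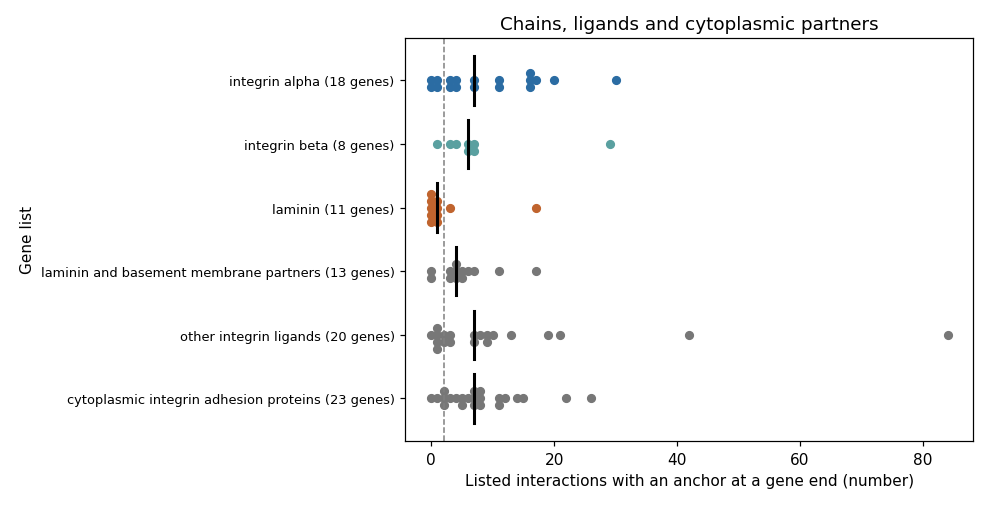
Interactions at gene ends for each gene (points) of the integrin alpha, integrin beta and laminin chains and of the 3 lists of adhesion genes, with the median of each list as a black bar and that of all coding genes as a dashed line. The laminin median of 1 lies below the dashed line at 2, and the other 5 medians, 4 to 7, lie above it.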

How the data were processed

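Interactions were read from the deposited list, which per the file header holds the chromosome, start and end of 2 anchors for each of 99041 interactions and no counts, scores or sample names. Per the submitters' processing notes, BWA and mm10 were used. Which caller and threshold made the list, and whether replicates were pooled, is not given in the sources used here. Gene spans came from NCBI RefSeq for GRCm38.p6, the assembly of mm10, without strand. Strand and start were taken from the RefSeq promoter table for 23 of the 37 members.

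Members were matched by full symbol, and counting was tested on simulated data. Alternatives were windows of 0 and 5 kb, the start alone, the gene span, the bin midpoint, merging of adjacent interactions, symbols by prefix, and genes alone in their bins. Genes of at least 50 kb and unshared end bins were added after seeing the data. Described in full were members with 10 or more interactions, chain pairs and the chains of laminin-511, and in each list of adhesion genes the 3 highest and those at 0. Other members and genes were named after their values were seen. Of the members, 1 is counted in the totals but not reported here by name, and neither are some partner genes. Members and lists were chosen with earlier results of these data known. Python 3.11.15, SciPy 1.17.1 and Matplotlib 3.10.9 were used.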

Additional observations from a re-analysis of the deposited data

How the results depend on the processing

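No paired analysis was possible because interactions are not assigned to libraries, and for the same reason no replicate could be left out. The count of members with an interaction (30 of 37) was 30 with a window of 0 kb, 31 with 5 kb, 23 by bin midpoint and 34 over the gene span, and merging cannot change it. At RefSeq starts alone it was 18 of 23 (78.3%, against 60.1% of coding genes). Of those 23 members, 20 had an interaction at either end, and Itga5 and Lama5 had 0 at the start. By construction, sets with fewer members gave lower counts: 11 of 13 for members alone in their end bins (84.6%, against 50.5%) and 18 of 22 for members of at least 50 kb. With symbols taken by prefix it was 31 of 41. Of the 37 members, 24 shared an end bin with another coding gene and 13 (35.1%) did not, against 38.8% of coding genes. Itga5, Itga10, Itgb4, Itgb7 and Lama5, counted among the 30, had interactions only in shared bins. The median of 4 interactions per member was 8 over the gene span (3 for all coding genes), 1 by bin midpoint (0 for all) and 2 after merging (1 for all). It was 3 to 6 otherwise. By midpoint an end near a bin edge is assigned to no bin, and Itga8, Itgb5 and Itga1 had 0. Counts moved by over 1.5 times for 19 members after merging, 19 over the span, 13 by midpoint, 11 with 5 kb, 11 without shared bins, 6 of 23 at starts and 3 with 0 kb.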

Other observations

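Symbols that begin like those of the integrin chains but name other proteins were counted in the same way. Itgb1bp1, which encodes a cytoplasmic binder of the beta1 tail (ICAP-1), had 7 interactions and 4 contacts, reaching 180 kb, with ends of Adam17, Asap2 and Ywhaq among its partners, and its end bins also held ends of Asap2 and Cpsf3. No interaction touched the ends of Itgb3bp, a centromere protein gene, of Itgbl1, a secreted integrin beta-like protein gene, or of Itgb2l, and 1 lay inside Itgbl1.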
